A study of Mus musculus with 19 samples.

Results

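The 6 genes and 4 processed pseudogenes described here, mouse chromosome 17 genes near Pdpk1 and copies of 3 of them, were measured in 19 RNA-seq libraries of mouse heart. The members were taken by gene name from the deposited expression table: Rnps1 with its pseudogene Rnps1-ps, Atp6v0c with Atp6v0c-ps2, Rps2 with Rps2-ps10 and Rps2-ps6, and Eci1, Hcfc1r1 and Tpsab1. They are 10 of the 56066 genes in the table, and all 10 were among the 14812 genes tested, which had at least 1 TPM (a transcript level scaled to transcript length and to the library's total) in at least 3 libraries. They had been picked because their levels differed between heart libraries of different title style, so every value from that contrast is given as a description.

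The series followed normal heart after birth and hearts with a PDK1 conditional knockout (cKO). The groups were cKO hearts at postnatal day 7 (P7, n = 3) and P21 (n = 3), wild-type (WT) hearts whose titles are plain numbers at P7 (n = 3) and P21 (n = 2), and WT hearts whose titles carry a letter code at P1 (n = 3), P7 (n = 2) and P21 (n = 2). The P21 titles of the last kind include "B6", and the titles of the cKO hearts are numbers followed by KO. The labels name no strain beyond that, no littermates, no Cre driver or floxed allele, and they do not say whether libraries came from separate animals, so that p-values measure only the spread between libraries. The youngest hearts are P1 in the labels and P0 in the design text. Library 63 (P21) is labelled cKO but has a plain number as its title, and it entered no comparison. The authors' deposited table also holds a mean column for P21 WT, which for all 56066 genes equals the mean of number-titled libraries 57, 60 and 63 within 0.001 TPM. Their P21 KO mean column equals the mean of libraries 55, 59 and 64 in the same way, without library 63.

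PDK1 is used both for Pdpk1, the 3-phosphoinositide-dependent kinase that activates AKT and related kinases, and for Pdk1, a mitochondrial kinase that restrains pyruvate dehydrogenase, and the labels do not say which was deleted. Pdpk1 measured 8.09, 7.98 and 7.95 TPM in cKO hearts at P7, against 8.09, 7.96 and 9.32 TPM in number-titled WT hearts and 11.9 and 11.63 TPM in letter-titled WT hearts. At P21 it measured 5.54, 5.55 and 4.95 TPM in cKO hearts, against 6.17 and 6.60 TPM in number-titled WT hearts and 7.65 and 7.0 TPM in letter-titled WT hearts. Letter-titled hearts were thus highest at both ages without overlap. Number-titled minus letter-titled WT averaged -0.30 on the log2 scale and did not pass (limma, adjusted p = 0.247). At P21 cKO minus number-titled WT was -0.22 ± 0.12 (SE) on the log2 scale and did not pass in limma (adjusted p = 0.257). That change passed with median-ratio scaling (-0.42, adjusted p = 0.026) and quantile normalization (-0.43, adjusted p = 0.0205). A value over the whole gene cannot show whether an exon is missing, so these levels do not check the genotype. The log2 level of Pdk1 differed by 0.28 ± 0.13 in cKO hearts at P21 and did not pass (limma, adjusted p = 0.164).

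A processed pseudogene is a copy of an mRNA that was reverse-transcribed and inserted elsewhere in the genome, so it lacks the introns of its parent gene and usually its promoter. Copies of abundant mRNAs such as those of ribosomal proteins are common, and the set of copies differs between inbred mouse strains. A recent copy keeps most of the parent's sequence, so short reads from the gene can be assigned to the copy and the reverse, and the values of a gene and its copy listed apart are uncertain to that extent. Genes close to each other on a chromosome are inherited together, and neighbours travel with an allele that is bred into another strain. Title style may stand for strain, breeding or batch, which cannot be told apart here.

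In mm10 coordinates of the GENCODE M21 annotation, Pdpk1 spans chr17:24073680-24150924 on the minus strand. Atp6v0c (chr17:24163866-24169702, minus strand) starts 0.0188 Mb from the Pdpk1 start, Rnps1 (chr17:24414565-24425901, plus strand) 0.264 Mb and Eci1 (chr17:24426641-24439348, plus strand) 0.276 Mb. Hcfc1r1 (chr17:23673596-23675227, plus strand) starts 0.477 Mb away, Rps2 (chr17:24718116-24721929, plus strand) 0.567 Mb and Tpsab1 (chr17:25343245-25345562, minus strand) 1.19 Mb. The antisense gene Snhg9 (chr17:24719531-24719965) lies inside Rps2, and the files do not say whether counting used strand. The pseudogenes are not linked to Pdpk1. Rnps1-ps lies at chr6:7982541-7983383 (minus strand, named Gm9825 in GENCODE M21), Atp6v0c-ps2 at chr6:37806086-37806550 (plus strand) and Rps2-ps6 at chr14:76236691-76237545 (minus strand).

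Each pseudogene is a near-complete match to its gene in the GENCODE M21 transcripts, which is why their reads are hard to tell apart. Rnps1-ps aligned to Rnps1 over 843 bases with 5 mismatches (99.41% identity), and 72.2% of its 50-base windows occur unchanged in the gene's transcript. Atp6v0c-ps2 aligned over 465 bases, the length of the whole Atp6v0c coding region, with 1 mismatch (99.78%), and 88.0% of its windows occur in the gene. Rps2-ps6 had 7 mismatches over 855 aligned bases (99.18%) and 2 gaps of 37 bases in all, with 56.2% of windows shared, and Rps2-ps10 had 6 mismatches over 934 bases (99.36%), with 73.5% of windows shared. Stretches of 120 bases from the coding part of 3 pairs are shown 5′ to 3′ to make plain how few bases separate a copy from its gene, with mismatched bases in capitals. They are chr6:7982836-7982955 (minus strand) for Rnps1-ps, chr6:37806136-37806255 (plus strand) for Atp6v0c-ps2 and chr14:76237247-76237366 (minus strand) for Rps2-ps6, each above the matching part of its gene's transcript.
Rnps1-ps: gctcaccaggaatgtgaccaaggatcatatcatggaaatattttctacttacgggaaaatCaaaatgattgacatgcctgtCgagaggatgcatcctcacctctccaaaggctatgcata
Rnps1: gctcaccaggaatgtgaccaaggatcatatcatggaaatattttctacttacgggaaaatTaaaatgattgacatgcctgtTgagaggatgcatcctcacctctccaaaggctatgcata
Atp6v0c-ps2: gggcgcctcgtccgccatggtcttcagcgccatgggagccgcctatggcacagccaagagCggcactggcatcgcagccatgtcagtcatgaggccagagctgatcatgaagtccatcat
Atp6v0c: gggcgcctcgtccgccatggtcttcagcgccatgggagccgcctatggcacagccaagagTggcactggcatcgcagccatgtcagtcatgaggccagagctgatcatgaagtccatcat
Rps2-ps6: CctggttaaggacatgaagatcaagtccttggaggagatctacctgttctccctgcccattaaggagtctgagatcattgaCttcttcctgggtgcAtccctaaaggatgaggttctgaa
Rps2: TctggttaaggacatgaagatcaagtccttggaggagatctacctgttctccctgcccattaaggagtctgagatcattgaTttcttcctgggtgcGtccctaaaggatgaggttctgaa
The Rnps1 pair differs at 2 of these bases, the Atp6v0c pair at 1 and the Rps2 pair at 3. A read that covers none of the capitals fits gene and copy equally well within the stretch.

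The libraries held between 12422 and 13797 genes at 1 TPM or more, and their read depth is unknown because the table gives no counts. Cardiomyocyte markers (8 genes, Myh6 and Tnnt2 among them) summed to between 46380 and 56720 TPM in the 18 grouped libraries. Xist exceeded 10 TPM in 11 of the 18, in every P1 library and in some but not all libraries of each other group, so the sexes were mixed. The P1 heart H3 held Xist (18.37 TPM) together with the Y-linked genes Eif2s3y (20.12 TPM) and Ddx3y (3.77 TPM), so that library cannot be assigned to 1 sex. Whole-heart RNA cannot tell fewer cells of a type from less RNA per cell. Library 57, 1 of the 2 number-titled WT hearts at P21, stood apart in the pseudogenes, and results that rest on it are given with and without it.

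The 4 pseudogenes were abundant in every cKO and number-titled WT heart and near 0 in every letter-titled WT heart, at each age. Rnps1-ps measured 61.7, 65.0 and 60.7 TPM in cKO hearts at P7 and 63.5, 63.3 and 66.6 TPM in number-titled WT hearts, against 0 and 0.10 TPM in letter-titled WT hearts. At P21 it measured 39.0, 40.6 and 37.9 TPM in cKO hearts and 14.8 (library 57) and 39.5 TPM in number-titled WT hearts, and it was listed at 0 in both letter-titled WT hearts. It was also listed at 0 in the 3 letter-titled WT hearts at P1. No cKO or number-titled library overlapped a letter-titled library, and library 57 was the lowest among the number-titled and cKO libraries.

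Atp6v0c-ps2 divided the libraries in the same way. At P7 it measured 106.3, 97.6 and 90.2 TPM in cKO hearts and 82.6, 92.4 and 82.01 TPM in number-titled WT hearts, and it was listed at 0 in both letter-titled WT hearts. At P21 the values were 76.2, 72.6 and 77.9 TPM in cKO hearts and 30.2 (library 57) and 74.7 TPM in number-titled WT hearts, against 0.24 and 0 TPM in letter-titled WT hearts. The 3 hearts at P1 were listed at 0.

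Both Rps2 copies kept a low level in every letter-titled heart, and Rps2-ps10 was the most abundant of the 4 pseudogenes in cKO and number-titled hearts. Rps2-ps10 lies at chr18:61259008-61259972 (minus strand). It measured 226.5, 217.8 and 208.9 TPM in cKO hearts at P7 and 217.6, 229.4 and 215.8 TPM in number-titled WT hearts, against 3.38 and 0.76 TPM in letter-titled WT hearts. At P21 it measured 194.9, 194.1 and 208.2 TPM in cKO hearts and 110.5 (library 57) and 183.3 TPM in number-titled WT hearts, against 2.58 and 1.94 TPM in letter-titled WT hearts. At P1 it ranged from 2.61 to 6.14 TPM. Rps2-ps6 measured 35.7 to 47.1 TPM in cKO hearts and 43.1 to 47.8 TPM in number-titled WT hearts at P7, against 0.28 and 0.86 TPM in letter-titled WT hearts, and at P21 36.0 to 39.2 TPM in cKO hearts and 19.0 (library 57) and 37.1 TPM in number-titled WT hearts, against 0.56 and 0.70 TPM in letter-titled WT hearts. Library 57 held 37.5% of the Rnps1-ps level of library 60, the other number-titled WT heart at P21, 40.4% of its Atp6v0c-ps2, 60.3% of its Rps2-ps10 and 51.2% of its Rps2-ps6.

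**Figure D1:**
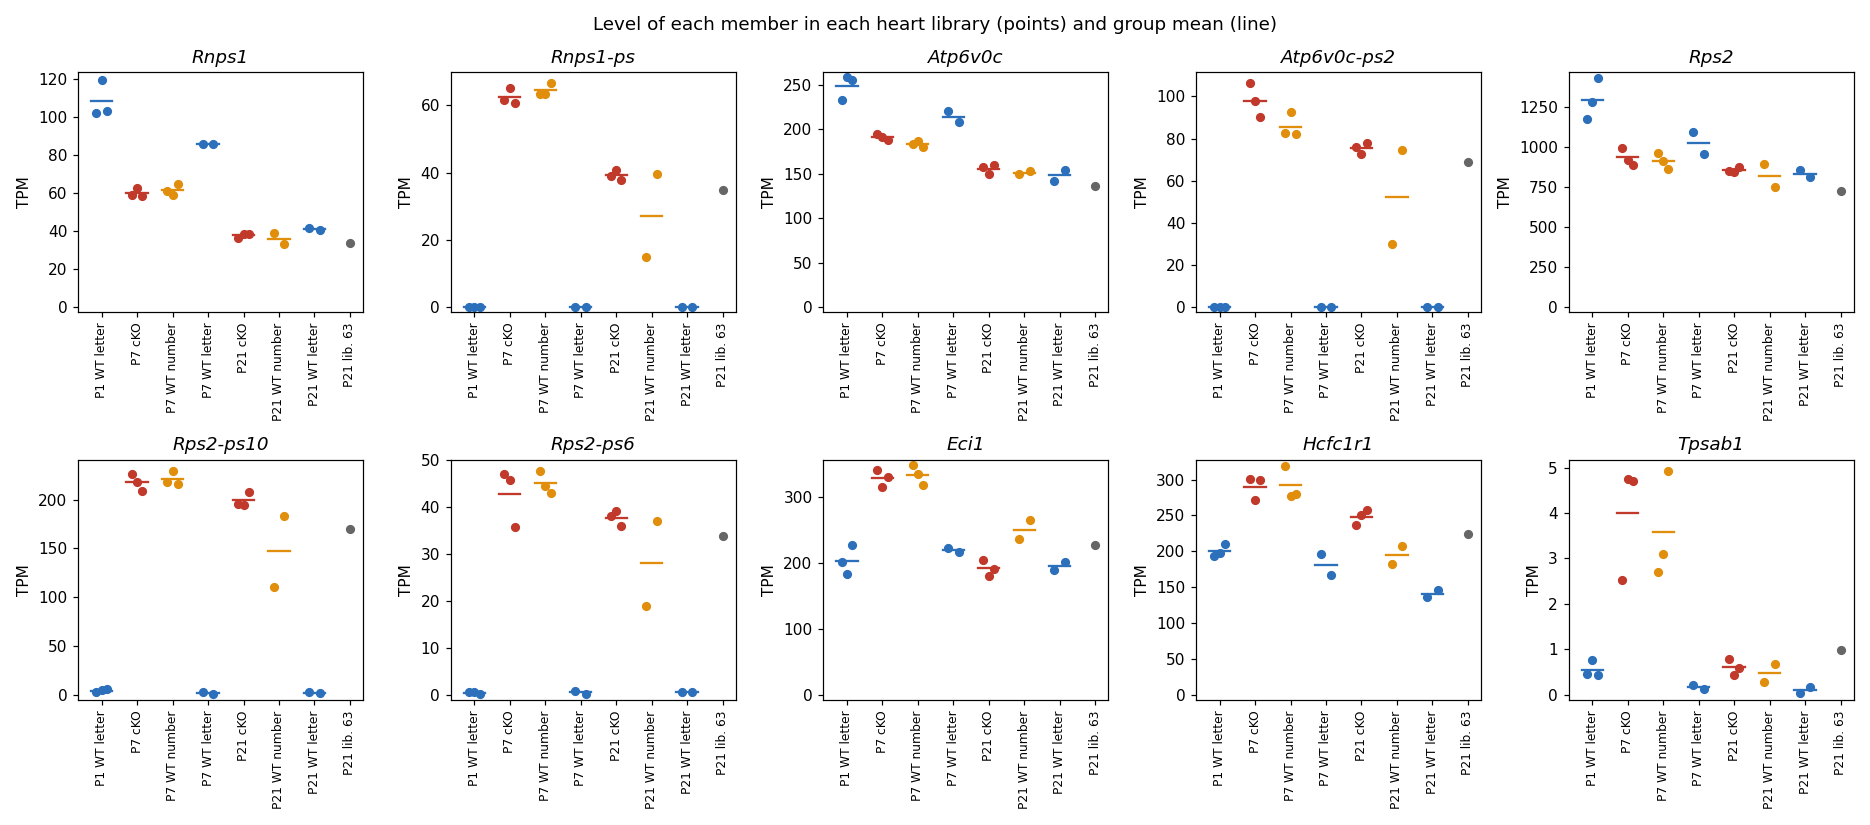
Level of each of the 10 members (TPM, linear axis from 0, a panel each) in every library, with P1, P7 and P21 from left to right and cKO left of number-titled and letter-titled WT within an age. Points are libraries, lines are group means, and library 63 stands last in grey; the pseudogene panels are near 0 in all 7 letter-titled libraries, and library 57 is the low point of the P21 number-titled pair.

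Among the 3 parent genes, Rnps1 was lower without overlap at both ages where its copy was high. Rnps1, an RNA-binding protein attached to the exon junction complex that acts in splicing and nonsense-mediated decay, measured 58.98, 62.8 and 58.5 TPM in cKO hearts at P7 and 61.3, 59.2 and 65.0 TPM in number-titled WT hearts, against 86.0 and 86.0 TPM in letter-titled WT hearts. At P21 Rnps1 measured 36.5, 38.6 and 38.4 TPM in cKO hearts and 38.8 (library 57) and 33.3 TPM in number-titled WT hearts, against 41.5 and 40.6 TPM in letter-titled WT hearts. The letter-titled hearts were higher at both ages without overlap, by a small margin at P21. Over both ages number-titled hearts were lower than letter-titled ones by a log2 change of -0.33.

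Atp6v0c, the proteolipid subunit that forms the rotating ring of the vacuolar proton pump, was lower without overlap at P7 and overlapped at P21. It measured 187.7 to 194.2 TPM in cKO hearts and 180.0 to 187.5 TPM in number-titled WT hearts at P7, against 208.6 and 220.1 TPM in letter-titled WT hearts. At P21 it measured 150.1 to 159.6 TPM in cKO hearts and 149.5 and 153.3 TPM in number-titled WT hearts, against 142.3 and 154.5 TPM in letter-titled WT hearts. Rps2, a protein of the small ribosomal subunit, overlapped at both ages, with 888.3 to 995.3 TPM in cKO hearts and 859.2 to 959.6 TPM in number-titled WT hearts at P7, against 956.3 and 1092 TPM in letter-titled WT hearts. At P21 Rps2 measured 843.1 to 874.8 TPM in cKO hearts and 748.4 and 890.7 TPM in number-titled WT hearts, against 809.0 and 854.3 TPM in letter-titled WT hearts. On the log2 scale, number-titled minus letter-titled WT averaged -0.10 over both ages for Atp6v0c and -0.10 for Rps2.

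Because TPM is a level per length, a gene and its copy can be put on a common footing by weighting the copy by its length relative to the gene. The copies then made up 30.3 to 34.3% of the Rnps1 sum in the 10 cKO and number-titled WT libraries other than library 57, 15.05 to 17.7% of the Atp6v0c sum and 21.3 to 22.9% of the Rps2 sum. In library 57 the shares were 14.3%, 7.35% and 12.5%. In letter-titled libraries they reached at most 0.0511% for Rnps1, 0.0662% for Atp6v0c and 0.444% for Rps2. Within each family the share was nearly the same in the 10 libraries at both ages and in both genotypes, and it was lower in library 57 for each of the 3 families.

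**Figure D2:**
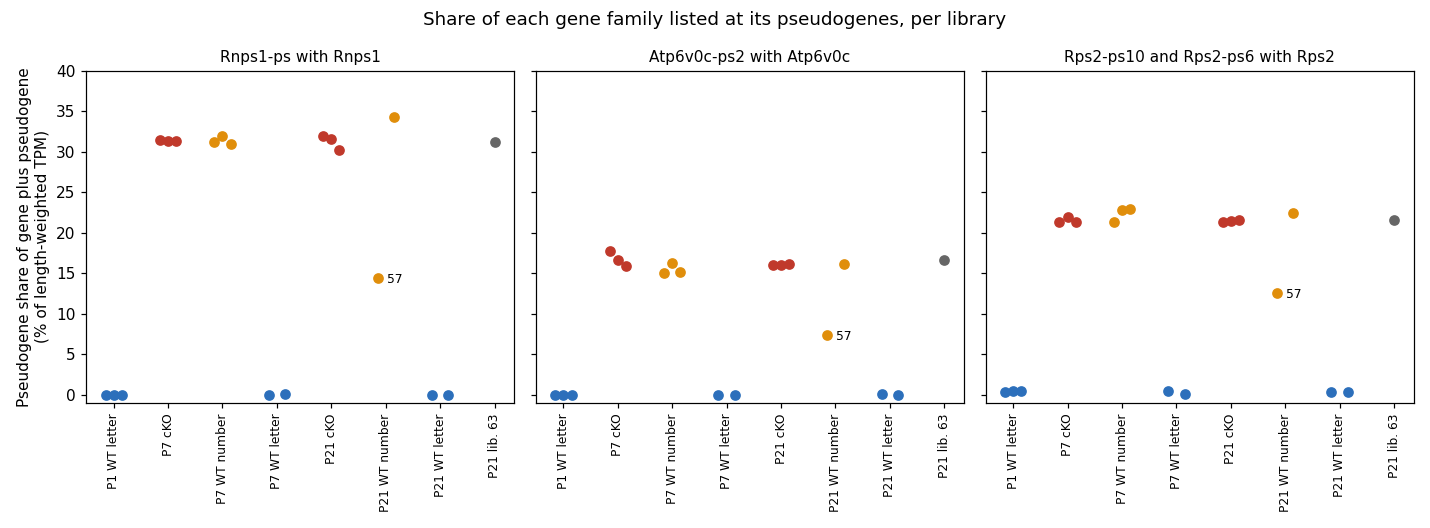
Share of each gene family's length-weighted TPM that is listed at its pseudogenes (%, linear axis), per library, with ages from left to right and cKO left of number-titled and letter-titled WT. Each point is a library; cKO and number-titled libraries lie in a narrow band for each family, library 57 lies below it, and letter-titled libraries lie at or close to 0.

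At P7 the weighted sums of Rnps1 and Atp6v0c were closer between title styles than the listed gene values, and those of Rps2 were further apart. For Rnps1 the sum averaged 87.5 ± 3.34 TPM in cKO hearts (SD, n = 3) and 90.1 ± 3.76 TPM in number-titled WT hearts (n = 3) at P7, against 86.0 ± 0.0325 TPM in letter-titled WT hearts (n = 2). For Atp6v0c it averaged 229.7 ± 6.43 TPM and 217.2 ± 5.90 TPM in those cKO and number-titled WT hearts, against 214.3 ± 8.18 TPM in letter-titled WT hearts. For Rps2 the sums were 1191 ± 68.1 TPM in cKO and 1171 ± 53.6 TPM in number-titled WT hearts, against 1027 ± 98.4 TPM in letter-titled WT hearts. At P21 all 3 sums were higher in cKO and number-titled WT than in letter-titled WT hearts, with Rnps1 at 55.02 ± 1.45 TPM in cKO hearts (n = 3) and 48.0 ± 3.73 TPM in number-titled WT hearts (n = 2), against 41.0 ± 0.594 TPM in letter-titled WT hearts (n = 2). Summing turned the sign of the mean difference between number-titled and letter-titled WT for the 3 genes, to log2 changes of 0.14 for Rnps1, 0.11 for Atp6v0c and 0.22 for Rps2.

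The 3 chromosome 17 genes with no pseudogene among the members were all higher in cKO and number-titled WT hearts at P7. Eci1, a mitochondrial isomerase needed to oxidise unsaturated fatty acids, measured 341.7, 315.9 and 330.4 TPM in cKO hearts and 348.9, 335.9 and 318.4 TPM in number-titled WT hearts at P7, against 223.0 and 216.5 TPM in letter-titled WT hearts. At P21 Eci1 measured 204.6, 181.3 and 190.6 TPM in cKO hearts and 236.6 (library 57) and 265.3 TPM in number-titled WT hearts, against 189.9 and 201.6 TPM in letter-titled WT hearts. The number-titled hearts were therefore above the letter-titled ones at both ages, and the cKO hearts at P7 but not at P21.

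Hcfc1r1, which binds the chromatin cofactor HCF-1, kept the split at both ages. It measured 300.6, 270.9 and 298.9 TPM in cKO hearts and 318.6, 276.7 and 280.1 TPM in number-titled WT hearts at P7, against 196.2 and 166.8 TPM in letter-titled WT hearts. At P21 the values were 236.1, 250.5 and 258.1 TPM in cKO hearts and 182.3 (library 57) and 207.7 TPM in number-titled WT hearts, against 136.9 and 145.7 TPM in letter-titled WT hearts. The 3 groups at P21 did not overlap one another, with cKO hearts highest.

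Tpsab1 encodes a tryptase of mast cells, and C57BL/6 mice are known to carry a splice-site mutation in it. At P7 it measured 2.53, 4.75 and 4.71 TPM in cKO hearts and 2.71, 3.09 and 4.93 TPM in number-titled WT hearts, against 0.21 and 0.12 TPM in letter-titled WT hearts. At P21 it measured 0.78, 0.43 and 0.60 TPM in cKO hearts and 0.28 (library 57) and 0.67 TPM in number-titled WT hearts, against 0.05 and 0.18 TPM in letter-titled WT hearts, with no overlap at either age. The P1 letter-titled hearts held 0.43 to 0.77 TPM. Tpsab1 and the neighbouring tryptase gene Tpsb2 are close paralogs, so reads may be split between them.

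Mast cell markers other than Tpsab1 did not follow this split. Of the 6 that were tested, 4 overlapped between the title styles at P7. Cma1 and Kit were lower without overlap, as were 24.1% of all genes in that comparison. Tpsb2 ranged from 4.17 to 7.29 TPM in cKO and number-titled WT hearts at P7, against 5.01 and 7.13 TPM in letter-titled WT hearts, and all 6 markers overlapped at P21. Cma1, a mast cell chymase, ranged from 4.67 to 7.70 TPM in cKO and number-titled WT hearts at P7, against 10.02 and 10.04 TPM in letter-titled WT hearts. The 9 listed mast cell markers other than Tpsab1 summed to 25.8 to 34.5 TPM in cKO and number-titled WT hearts at P7, against 36.4 and 39.4 TPM in letter-titled WT hearts.

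In the comparison of number-titled with letter-titled WT over both ages, 8 of the 10 members passed limma's adjusted p threshold of 0.05, beside 44 of all 14812 genes (0.297%). The members were chosen on this contrast, and the count is a description. The log2 changes of the chromosome 17 genes in it were 0.48 for Eci1, 0.57 for Hcfc1r1 and 1.17 for Tpsab1, on the log2(TPM + 1) scale, which understates the change of a gene as low as Tpsab1. Counted by library, 7 members were higher and 2 lower without overlap in cKO and number-titled WT hearts at P7, beside 4.08% and 24.1% of all genes. At P21 6 members were higher and 1 lower, beside 12.8% and 2.55% of all genes, and 3 overlapped (Atp6v0c, Rps2 and Eci1).

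Called genes made up a larger share of the genes tested on chromosome 17 than of those elsewhere, a description that rests on the contrast used to pick the members. Of the 44 called genes 16 lie on chromosome 17 (2.25% of the 710 tested there), 23 on other chromosomes (0.168% of 13731) and 5 have no position in the annotation. Within 1 Mb of the Pdpk1 start 4 of 59 genes were called and within 5 Mb 12 of 173, and leaving out the members these counts were 1 of 54 and 8 of 167. The next highest chromosome was 6, with 3 of 728 genes called (0.412%), 2 of which are the pseudogenes Rnps1-ps and Atp6v0c-ps2. Beyond 10 Mb of Pdpk1, 4 of 423 chromosome 17 genes were called, which were Emilin2, Ttc27, Heatr5b and Cox7a2l.

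Most neighbours of the members did not pass. The 8 non-members within 1 Mb of Pdpk1 with the largest log2 changes all missed the threshold (limma). They were the antisense gene Snhg9 (-1.74, adjusted p = 0.476), the pseudogene Gm49911 (-1.35, adjusted p = 0.203), the ribosomal protein paralog Rpl3l (0.82, adjusted p = 0.0954), Zfp40 (-0.76, adjusted p = 0.13), Dnase1l2 (-0.70, adjusted p = 0.107), Eme2 (-0.68, adjusted p = 0.125), Flywch2 (0.63, adjusted p = 0.382) and Ift140 (0.54, adjusted p = 0.244). The neighbours that passed and are no members were chosen for mention after their values were seen. Traf7, a ubiquitin ligase 0.377 Mb away, measured 47.1 to 53.5 TPM in cKO hearts and 47.1 to 55.4 TPM in number-titled WT hearts at P7, against 68.5 and 71.1 TPM in letter-titled WT hearts. Cacna1h, a T-type calcium channel 1.28 Mb away, measured 1.24 to 3.83 TPM in cKO hearts and 1.55 to 3.81 TPM in number-titled WT hearts at P7, against 11.8 and 13.9 TPM in letter-titled WT hearts. Both were lower in cKO and number-titled hearts, the opposite of Eci1 and Hcfc1r1 in the same region.

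**Figure D3:**
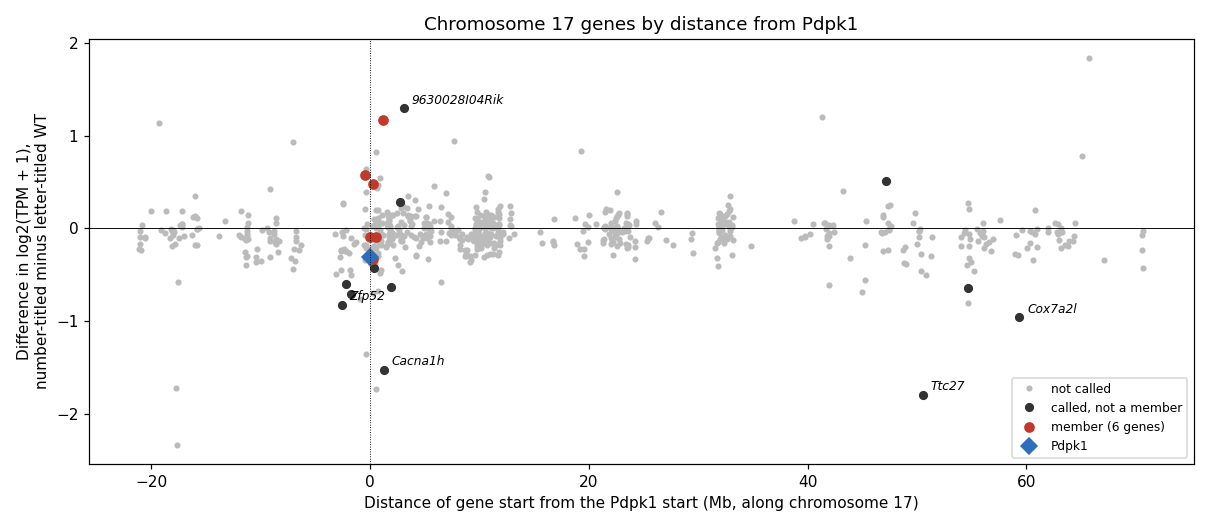
Difference in log2(TPM + 1) between number-titled and letter-titled WT (mean of P7 and P21) for the 710 chromosome 17 genes tested, against the distance of each gene's start from the Pdpk1 start (Mb). Red points are the 6 member genes, black points other called genes and the blue diamond Pdpk1; 12 of the 16 called genes lie within 5 Mb of Pdpk1, and the other 4 lie beyond 10 Mb.

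Of all 434 processed pseudogenes tested, 8 were called between number-titled and letter-titled WT (1.84%), all higher, and the 4 members are among them. Each was matched to the protein-coding transcript it resembles best, at 90% identity or more over at least 50% of its length. With the members left out, 4 of the 22 pseudogenes whose closest coding gene lies on chromosome 17 were called (18.2%), against 0 of the 339 whose closest gene lies on another chromosome. Of the 69 with no such match 0 were called. These counts rest on the contrast used to pick the members and are a description. Of the 4 called non-members, 3 come from the 7 other Rps2 copies tested, which may share reads with the member copies of Rps2.

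The 4 other called pseudogenes, named after their values were seen, were 3 further Rps2 copies and a copy of Cox7a2l, which encodes an assembly factor of respiratory supercomplexes. Rps2-ps13 averaged 6.72 TPM in cKO hearts and 6.69 TPM in number-titled WT hearts at P7, against 0.615 TPM in letter-titled WT hearts, and Gm11249 averaged 7.83 and 7.24 TPM in those hearts, against 0.425 TPM. The table holds 64 Rps2 copies, of which 9 were tested, and the copies that are no members summed to 26.3 ± 3.12 TPM in cKO hearts and 23.7 ± 3.80 TPM in number-titled WT hearts at P7 (SD, n = 3 each), against 5.95 ± 1.13 TPM in letter-titled WT hearts (n = 2). Gm6969, on chromosome 12, measured 332.9 to 391.7 TPM in cKO hearts and 331.4 to 359.1 TPM in number-titled WT hearts at P7, against 1.05 and 1.30 TPM in letter-titled WT hearts.

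Gm6969 and Cox7a2l, which lies 59.4 Mb from Pdpk1, also varied within groups. At P21 Gm6969 measured 257.1, 270.2 and 152.1 TPM in cKO hearts and 139.9 (library 57) and 270.6 TPM in number-titled WT hearts, against 1.31 and 0.88 TPM in letter-titled WT hearts. Cox7a2l measured 98.6, 105.7 and 166.2 TPM in those cKO hearts and 181.8 (library 57) and 92.0 TPM in the number-titled WT hearts, against 220.3 and 204.1 TPM in letter-titled WT hearts. Among the P1 letter-titled hearts Gm6969 was at 1.08, 185.1 and 0.55 TPM and Cox7a2l at 326.1, 228.5 and 350.8 TPM. Both genes were intermediate in library 57, cKO library 64 and the P1 heart H2, whereas the 4 member pseudogenes were intermediate in library 57 alone.

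**Figure D4:**
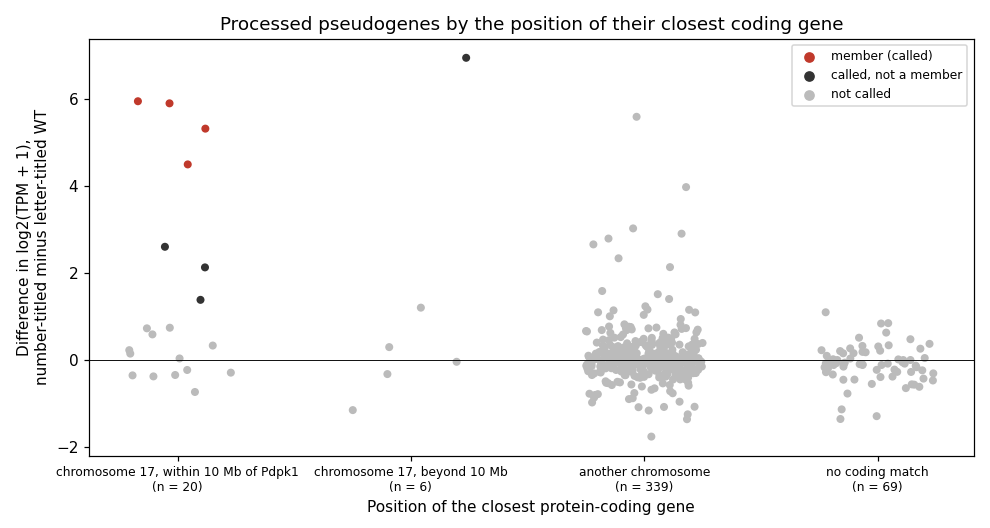
Difference in log2(TPM + 1) between number-titled and letter-titled WT (mean of P7 and P21) for 434 processed pseudogenes, grouped by where their closest protein-coding gene lies. Each point is a pseudogene, red the 4 members and black the 4 other called ones; all 8 have their closest gene on chromosome 17.

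Genotype was compared between cKO and number-titled WT hearts. The members were picked with levels in letter-titled WT, number-titled WT and cKO hearts in view, so their counts and p-values here are a description as well. At P7 0 of the 10 members passed between cKO and number-titled WT hearts (limma, adjusted p = 1 for each), and 0 had an unadjusted p under 0.05, beside 3 of all 14812 genes called (0.0203%) and 469 at that unadjusted p. The log2 changes ranged from -0.08 to 0.19. Eci1 averaged 329.3 ± 12.9 TPM in cKO hearts and 334.4 ± 15.3 TPM in number-titled WT hearts (SD, n = 3 each), and Hcfc1r1 290.1 ± 16.7 TPM in cKO and 291.8 ± 23.3 TPM in number-titled WT hearts.

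At P21, with values as deposited, Eci1 was lower and Hcfc1r1 higher in cKO hearts. The other 8 members did not pass, beside 9.85% of all genes called (8.82% higher and 1.03% lower). The balance of all calls depended on scaling, with 1307 genes higher and 152 lower as deposited, 386 higher and 469 lower after median-ratio scaling, and 393 higher and 404 lower after quantile normalization. Eci1 averaged 192.2 ± 11.7 TPM in cKO hearts (SD, n = 3) and 250.9 ± 20.3 TPM in number-titled WT hearts (n = 2), which is -0.38 ± 0.09 on the log2 scale (SE) and passed in limma with an adjusted p of 0.014. Without library 57 it was -0.46, and without library 60 it was -0.30. Either step leaves 1 number-titled WT heart at P21, so only the size of the change is given. Hcfc1r1 averaged 248.2 ± 11.2 TPM in cKO hearts and 195.0 ± 17.9 TPM in number-titled WT hearts. That is a log2 change of 0.35 ± 0.09 (limma, adjusted p = 0.0247), and without library 57 it was 0.26. Hcfc1r1 did not pass after median-ratio scaling (0.13, limma, adjusted p = 0.542) or quantile normalization (0.21, adjusted p = 0.173), whereas Eci1 passed in both (-0.60 and -0.52, adjusted p = 0.0105 and 0.00531). The median over all genes was 0.18, so Hcfc1r1 lay 0.17 above it and Eci1 0.57 below it. Without cKO library 59 0 of the 10 members passed, and counting library 63 as cKO left 0 members and 0 of all genes called, while counting it as number-titled WT left Eci1 and Hcfc1r1 called (limma, adjusted p = 0.0116 and 0.0377). Markers of 2 other kinds of heart cell moved in the same comparison, with 5 of 6 fibroblast and 4 of 6 endothelial markers higher and 0 lower (3 and 1 after median-ratio scaling). Of the other marker lists, 0 of 6 macrophage, 0 of 6 mast cell, 0 of 4 erythroid and 0 of 2 brown fat markers passed. Among cardiomyocyte markers 1 of 8 was higher, and among skeletal muscle markers 1 of 4 was lower. Fibroblast markers summed to 852.8 to 1047 TPM in cKO hearts, against 554.9 and 681.9 TPM in number-titled WT hearts, and their part in these values was not tested.

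Among the members the pseudogenes had the largest log2 changes at P21, 0.67 ± 0.24 for Rnps1-ps and 0.66 ± 0.24 for Atp6v0c-ps2, and did not pass (limma, adjusted p = 0.0939 and 0.0935). Both values rest on which of the 2 number-titled libraries is used. Without library 60, which leaves library 57 as the only number-titled WT heart at P21, the log2 changes were 1.35 for Rnps1-ps, 1.30 for Atp6v0c-ps2 and 0.95 for Rps2-ps6. Without library 57 those of Rnps1-ps and Atp6v0c-ps2 were -0.01 and 0.02, and those of Rps2-ps10 and Rps2-ps6 were 0.12 and 0.02, against 0.48 and 0.49 with it. The parent genes had log2 changes of 0.07 (Rnps1), 0.04 (Atp6v0c) and 0.07 (Rps2), none of which passed, and the sign of each turned when libraries were scaled by median ratios. Between ages the difference in the cKO effect passed for 0 of 10 members (limma), with 3 at an unadjusted p under 0.05, beside 144 of all genes (0.972%) and 2468 at that unadjusted p.

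**Figure D5:**
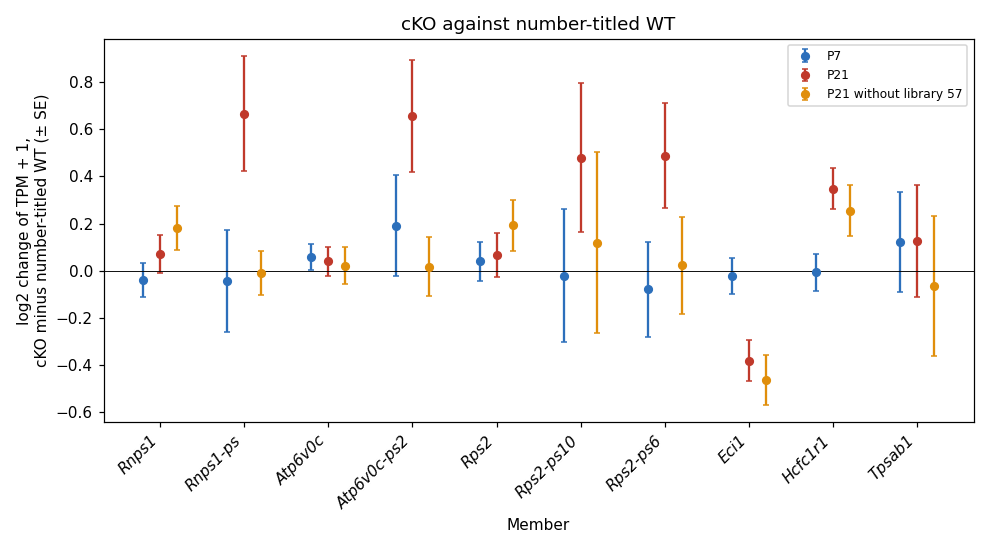
Change in log2(TPM + 1) between cKO and number-titled WT hearts for each member (points, with SE bars) at P7, at P21 and at P21 without library 57. The pseudogenes sit at 0.48 to 0.67 at P21 and at -0.01 to 0.12 without library 57, whereas Eci1 stays below 0 in both.

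Of the partners of the members in known complexes and pathways, 1 passed between title styles, and 0 passed after median-ratio scaling or quantile normalization. In number-titled against letter-titled WT 0 of 17 exon junction complex and decay factors, 0 of 16 vacuolar ATPase subunits, 0 of 32 small ribosomal subunit proteins and 0 of 14 HCF-1 partners passed (limma), with median log2 changes of -0.11, 0.03, 0.06 and -0.12, beside -0.04 over all genes. Of 10 other genes of unsaturated fatty acid oxidation 1 was lower, Decr2, a peroxisomal dienoyl-CoA reductase that itself lies 1.94 Mb from Pdpk1 (log2 change -0.64, limma, adjusted p = 0.0488). In cKO against number-titled WT hearts at P21, 3 of these 10 oxidation genes were lower and 0 higher, beside 1.03% of all genes lower and 8.82% higher. They were Hadh, Eci2 and Acaa2, with log2 changes of -0.50, -0.43 and -0.57 (limma, adjusted p = 0.000529, 0.00203 and 0.00304). Eci1 had the same sign in that comparison. After median-ratio scaling 5 of the 10 were lower and after quantile normalization 3, with 0 higher in both. In the same hearts 3 of 16 vacuolar ATPase subunits and 6 of 32 small ribosomal proteins were higher, with 0 lower, while Atp6v0c and Rps2 did not pass. These counts rested on the scaling, with 0 subunits called after either rescaling, and 0 ribosomal proteins after median ratios and 1 after quantile normalization.

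With age the 6 chromosome 17 genes were all lower at P21 than at P7, averaged over cKO, number-titled and letter-titled WT, beside 64.3% of all genes lower (9517 lower and 1526 higher, against 4427 lower and 4590 higher after median-ratio scaling and 4572 lower and 4509 higher after quantile normalization). The median log2 change over all genes was -0.40, and relative to it Tpsab1 lay at -0.70 and Rnps1 at -0.42, Eci1 at -0.05, Hcfc1r1 at 0.01, Atp6v0c at 0.03 and Rps2 at 0.21. Rnps1 had a log2 change of -0.82 ± 0.05 (limma, adjusted p = 1.17e-09) and Tpsab1 of -1.10 ± 0.14 (limma, adjusted p = 4.29e-06). Tpsab1 averaged 3.997 TPM at P7 and 0.603 TPM at P21 in cKO hearts, and 3.577 and 0.475 TPM in number-titled WT hearts. In letter-titled WT hearts it was near 0 at both ages (0.165 and 0.115 TPM). Its number-titled minus letter-titled difference changed by -1.55 ± 0.35 from P7 to P21 and did not pass (limma, adjusted p = 0.166). Of the 6 other mast cell markers tested, 5 were lower at P21 and 0 higher (median log2 change -0.98). With median-ratio scaling, which removes the shift of the median, Rps2 and Atp6v0c were higher at P21 (limma, adjusted p = 0.0053 and 0.0485), Eci1 (0.0376) and Hcfc1r1 (0.10) did not pass (adjusted p = 0.661 and 0.168), and Rnps1 and Tpsab1 were lower as before.

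Within letter-titled WT hearts 3 of the 6 genes were lower at P7 than at P1, beside 11.1% of all genes. Rnps1 measured 86.0 and 86.0 TPM at P7, against 102.2, 119.5 and 103.1 TPM at P1, a log2 change of -0.33 ± 0.08 (limma, adjusted p = 0.0104). Rps2 changed by -0.34 ± 0.09 (limma, adjusted p = 0.0188) and Atp6v0c by -0.21 ± 0.06 (limma, adjusted p = 0.0196). Eci1, with 183 to 227 TPM at P1, and Hcfc1r1, with 193 to 211 TPM, did not pass. Without the P7 letter-titled heart 3, 0 of the 6 genes passed. Rps2 did not pass after median-ratio scaling (limma, adjusted p = 0.0655), and neither Atp6v0c nor Rps2 passed after quantile normalization (adjusted p = 0.0934 and 0.0878).

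Genes that are no members were ranked by Pearson's r of log2(TPM + 1), centred within each age over the 18 libraries. Among them the Rps2 copy Gm11249 was most like each of the 4 pseudogenes (r = 0.975 to 0.982). The 4 pseudogenes were more like one another (r = 0.99 to 0.999). The zinc finger gene Zkscan3 on chromosome 13 ran opposite to them (r between -0.952 and -0.937). Rnps1 was most like the zinc finger genes Zfp52 and Zfp758 of chromosome 17 (r = 0.905 and 0.903), and Eci1 ran opposite to its neighbour Traf7 (r = -0.901) and to Neurl1b (r = -0.934). Tpsab1 ran opposite to Ttc27 and Zfp758 (r = -0.908 and -0.899). The 18 libraries fall into the 2 title styles, which these coefficients share, and they are given as a description.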

How the data were processed

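The authors deposited a table of TPM values, 1 per gene and library, in which the replicates were not pooled, and no counts were made from it. TopHat2 2.0.14, Cufflinks 2.2.1 and the build mm10 are named in the submitters' processing notes, with no role. The labels and file header do not name the program that computed TPM or its annotation. Per the labels, total RNA came from an RNA iso Plus extraction, and a SMARTer mRNA-Seq kit made the libraries. Another 2 value columns are for embryonic ages, which match none of the samples, and were left aside.

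Genes that reached 1 TPM in 3 or more libraries were modelled as log2(TPM + 1) with limma 3.58.1 in R 4.3.3 (cell means of 7 groups over 18 libraries, lmFit, eBayes with trend), with Benjamini-Hochberg adjustment over the 14812 genes of each comparison and a threshold of 0.05. The fit was tested on simulated data with known changes. Pseudogenes were matched to coding transcripts of GENCODE M21 with blastn 2.17.0, and the sequences shown come from those transcripts. The length-weighted sum was added after the data were seen. The members and lists were chosen with earlier results of these data known. The genes named were the members, Pdpk1, Pdk1 and the 8 tested neighbours within 1 Mb of Pdpk1 with the largest change. The 3 non-members most like each member and up to 3 genes of each list were named too. Alternatives covered scaling, pseudocount (0.1), filters, model, weights, library 63, the block and leaving out each library.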

Additional observations from a re-analysis of the deposited data

Results flagged for a closer look

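Library 63, labelled cKO at P21 but titled with a plain number, entered no comparison. Its 4 pseudogene levels lay above those of library 57 and below those of every other P21 cKO and number-titled WT library. In library 63 7 of the 10 members were above the highest of the 7 letter-titled WT libraries. The members were picked on their difference between title styles, so that count is a description. The share of all genes above the letter-titled libraries was not worked out. Rnps1-ps was at 34.7 TPM, Atp6v0c-ps2 at 68.8 TPM, Rps2-ps10 at 169.5 TPM and Rps2-ps6 at 33.8 TPM, against at most 0.10, 0.24, 6.14 and 0.86 TPM in letter-titled libraries. Eci1 was at 227.5 TPM, Hcfc1r1 at 223.8 TPM and Tpsab1 at 0.98 TPM in library 63, against at most 227.3, 210.5 and 0.77 TPM. The other 3 members were low in library 63. Rnps1, at 33.6 TPM, was below every letter-titled library (lowest 40.6 TPM). Atp6v0c (135.9 TPM) and Rps2 (726.6 TPM) were below every cKO and number-titled library (lowest 149.5 and 748.4 TPM) and every letter-titled one (lowest 142.3 and 809.0 TPM). For Eci1 the gap to the P1 libraries was far smaller than the spread between them. The pseudogene shares of the length-weighted sums were 31.2% for Rnps1, 16.6% for Atp6v0c and 21.6% for Rps2 in library 63, each within the range of the 10 cKO and number-titled libraries other than library 57. Groups of 2 or 3 libraries were too small to test for outlying libraries.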

How the results depend on the processing

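The count of members called between cKO and number-titled WT at P7 was 0 in every setting run. Where a value changed, the cause was not tested. At P21 2 members and 1459 genes were called in that comparison, and 1 member was called with median-ratio scaling (855 genes), with quantile normalization (797 genes) and with array quality weights (690 genes), while an additive model of title style called 3155 genes. Placing library 63 in P21 cKO left 0 members and 0 genes called at P21, 1 gene at P7 and 1 gene for the difference between ages. At P7 3 genes were called with the settings as reported, 10 with no filter and 8 with array quality weights. The log2 changes in cKO at P21 turned sign with median-ratio scaling for Rnps1 (-0.14), Atp6v0c (-0.18) and Rps2 (-0.15), with quantile normalization for Rnps1 (-0.076), Atp6v0c (-0.11), Rps2 (-0.0179) and Tpsab1 (-0.0013), with the additive model for Tpsab1 (-0.30), and with library 63 in cKO for Atp6v0c (-0.0094) or in number-titled WT for Tpsab1 (-0.0185). The difference between ages in the cKO effect was called for 144 genes as reported, 86 with median-ratio scaling, 85 with quantile normalization, and 1120 (1 member) with the additive model.

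For P21 against P7, median-ratio scaling turned Atp6v0c (0.12), Rps2 (0.30), Eci1 (0.0376) and Hcfc1r1 (0.10), and quantile normalization left 3 of the 6 chromosome 17 genes called. For P7 against P1 quantile normalization left 1 of 6 called, and the additive model turned Tpsab1 (0.017). Between number-titled and letter-titled WT the additive model called 28 genes against 44, and the difference between ages in that contrast was called for 2 genes as reported, 11 with median-ratio scaling, 1 with a filter of 5 TPM and 22 with no filter. Summing gene and pseudogenes turned Atp6v0c (0.39), Rnps1 (0.57) and Rps2 (0.23), and with length weights these were 0.11, 0.14 and 0.22.

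Leaving out each library in turn, the calls for cKO against number-titled WT ranged from 3 to 6 genes at P7 and from 246 (without library 57) to 2674 (without library 60) at P21, with 0 to 4 members. Those for number-titled against letter-titled WT ranged from 21 to 70, for P7 against P1 from 1767 to 3899 (0 to 3 of the 6 genes), for the age difference of the cKO effect from 31 to 690 (0 to 3 members) and for that of title style from 2 to 26. Over the same settings the change in cKO at P21 ranged from -0.011 to 1.35 for Rnps1-ps, -0.0645 to 0.32 for Tpsab1, -0.037 to 0.18 for Rnps1 and -0.059 to 0.19 for Rps2.

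With the replicate number of the letter-titled libraries as a block, 72 genes were called for the difference between ages in the cKO effect and 5 for that of title style. Same-numbered libraries correlated at -0.095 to 0.066 in their deviations from group means. In a group of 2 these deviations mirror each other, so the check cannot tell whether the numbers pair libraries. The block changed no other count beyond 1.5 times, but Rps2 did not pass for P7 against P1 with it (-0.33, limma, adjusted p = 0.0503). Where a group was left with 1 library, its spread was taken from the other groups. Without counts, no counting error could be given.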

Other observations

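Senp3, a SUMO protease gene on chromosome 11, and Zkscan3 were among the genes called between number-titled and letter-titled WT that lie on other chromosomes, and both are named here after their values were seen. Senp3 measured 24.2, 24.3 and 26.5 TPM in cKO hearts and 22.5 and 22.1 TPM in number-titled WT hearts at P21, against 60.8 and 61.6 TPM in letter-titled WT hearts. At P7 it averaged 30.7 TPM in cKO hearts and 33.4 TPM in number-titled WT hearts, against 34.3 TPM in letter-titled WT hearts. Zkscan3 averaged 26.3 TPM in cKO hearts and 26.3 TPM in number-titled WT hearts at P7, against 43.3 TPM in letter-titled WT hearts. Ttc27, on chromosome 17 and 50.6 Mb from Pdpk1, measured 3.95 to 7.78 TPM in cKO hearts and 3.93 to 5.99 TPM in number-titled WT hearts at P7, against a mean of 41.8 TPM in letter-titled WT hearts.

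Nnt, which encodes the mitochondrial transhydrogenase, did not pass between title styles, with a log2 change of 0.23 ± 0.17 between number-titled and letter-titled WT (SE; limma, adjusted p = 0.622). In cKO against number-titled WT hearts at P21 its log2 change was 1.24 ± 0.23 (limma, adjusted p = 0.00579). By library Nnt measured 175.83, 339.6 and 338.61 TPM in those cKO hearts, against 104.28 and 126.77 TPM in number-titled WT hearts. At P7 it measured 157.84, 155.05 and 155.75 TPM in cKO hearts, against 247.88, 152.65 and 222.95 TPM in number-titled WT hearts. Its level thus varied within groups, and the cause was not tested.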
